A study of Rattus norvegicus with 12 samples.

Results

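AMPA and kainate receptors are ligand-gated cation channels opened by glutamate, and their pore-forming subunits are encoded by the Gria and Grik genes. The 4 Gria genes (Gria1 to Gria4) and the 5 Grik genes (Grik1 to Grik5) were chosen by name, and all 9 had a row among the 17494 genes of the deposited count table. Messenger RNA was measured in the hippocampus of 12 male wild-type Long Evans rats. All of them had received 3 blast exposures, 1 per day, at 10 weeks of age, and they were sacrificed 29 weeks after blast. The 6 blast-boldine rats (rats 12, 17, 19, 20, 32 and 35) ate chow containing boldine, a plant alkaloid that blocks connexin and pannexin hemichannels, from week 2 after blast until sacrifice. The 6 blast-control rats (rats 1, 4, 5, 6, 7 and 9) were blast-exposed and untreated. Sham-exposed rats were not analysed here, so every difference below is between treated and untreated blast-exposed animals. The comparison asks whether transcripts of these receptors differed between blast-boldine and blast-control hippocampus.

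AMPA receptors are assembled from GluA1 to GluA4, the products of Gria1 to Gria4, and carry most of the fast excitatory transmission in the hippocampus. Receptors that contain edited GluA2 pass little calcium, while receptors without it are calcium-permeable, and delivery of GluA1 to synapses is a step in long-term potentiation. Kainate receptors are assembled from GluK1 to GluK5, the products of Grik1 to Grik5, act on both sides of the synapse, and are known in the hippocampus for their role at mossy fibre synapses and on interneurons. GluK1, GluK2 and GluK3 can form channels alone, while GluK4 and GluK5 need one of them as a partner.

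Across 11 libraries between 10148474 and 40850106 reads were assigned to genes, while blast-control 6 held 74008, so that 1 read in it came to 15.8 CPM (read counts relative to the TMM-scaled library size). In blast-control 6 the Gria genes together had 203 counts and the Grik genes 11, with Grik1 and Grik3 at 0. A count of 0 there allows a level of up to 47.5 CPM (3 counts, counting error only), which is above every Grik3 value measured in the other rats. The deposited library names carry a suffix from 1 to 6, each on a pair of libraries, which allows 4 divisions of the rats into 2 sets of 6 with rising rat numbers. The division that accounted for most of the first principal component of the 11 deeper libraries (95.1%, against 57.3%, 14.9% and 2.84% for the others) was used as an inferred sequencing sheet. Sheet A then held rats 1, 7, 9, 20, 32 and 35, and sheet B rats 4, 5, 6, 12, 17 and 19, with 3 rats of each treatment in both. The labels do not state a sheet, and because the data helped to choose the division, differences between sheets are given without a test. Summed excitatory neuron markers (Slc17a7, Camk2a, Neurod6, Nrgn) lay between 2355 and 5301 CPM in the 5 deeper blast-control libraries and between 2649 and 3752 CPM in blast-boldine. Markers of CA1, CA2, CA3 and dentate granule neurons were likewise detected in all 11 libraries, apart from Spink8, Iyd, Tdo2 and Dsp. Spink8, Iyd and Tdo2 were at 0 in at least 1 library and reached only 0.20, 1.02 and 0.10 CPM. Dsp, a dentate granule marker, had no row in the count table. Summed choroid plexus markers (Ttr, Folr1, Kl, Clic6) ranged from 12.9 to 1157 CPM in blast-control and from 8.40 to 1195 CPM in blast-boldine.

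The Gria genes were the more abundant family. Per kilobase of counted exon, and over the 11 libraries other than blast-control 6, Gria1 had the highest level (314.8 ± 65.6 CPM per kilobase, SD, n = 11). Gria2 followed at 196.6 ± 23.8 and Gria3 at 68.3 ± 5.1 CPM per kilobase. Grik2 was the most abundant kainate subunit transcript (43.9 ± 6.2 CPM per kilobase), ahead of Grik5 (37.6 ± 11.2). Gria4 at 30.5 ± 6.4 and Grik4 at 27.2 ± 5.4 CPM per kilobase came next, and Grik1 (9.94 ± 2.02) and Grik3 (9.44 ± 1.86) were lowest. Gria1 exceeded Gria2, Gria2 exceeded Gria3, Gria3 exceeded Grik2, and Grik4 exceeded Grik1 in 11 of 11 libraries, so these steps were larger than the spread between rats. Grik2 exceeded Grik5, and Grik5 exceeded Gria4, in 10 of 11. Gria4 exceeded Grik4 in 5 of 11 and Grik1 exceeded Grik3 in 5 of 11, so neither of those neighbours can be ordered. The counted exons differ in length from 2980 bases for Gria1 to 6856 bases for Gria2, and levels per kilobase depend on those gene models. Before division by length the mean of Gria2 was above that of Gria1. It was 1283 against 927 CPM in blast-control (n = 5) and 1402 against 947 CPM in blast-boldine (n = 6). Gria4 was likewise above Grik5, at 161 against 154 CPM in blast-control and 171 against 131 CPM in blast-boldine.

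**Figure D1:**
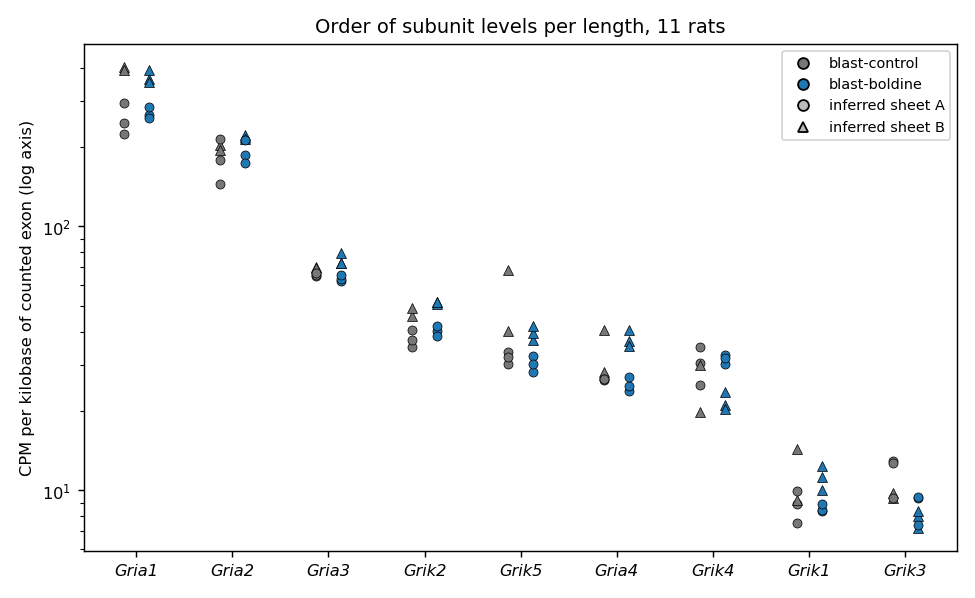
Level of each subunit transcript in CPM per kilobase of counted exon (log axis) in 11 rats, ordered by mean. Grey points are blast-control and blue points blast-boldine rats, circles inferred sheet A and triangles sheet B. Gria1 and Gria2 sit above all other subunits in every rat, while Gria4 and Grik4, and Grik1 and Grik3, interleave.

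Gria1, on chromosome 10 (41210713 to 41527283, plus strand, mRatBN7.2, the build of the deposited table), encodes GluA1. Its level was 668, 1198, 1165, 733 and 872 CPM in blast-control 1, 4, 5, 7 and 9, and 1077, 1164, 1049, 786, 765 and 842 CPM in blast-boldine 12, 17, 19, 20, 32 and 35. These values were scaled without blast-control 6, which had 79 counts. The treatment groups overlapped, with both the highest and the lowest value in blast-control.

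Gria2, on chromosome 2 (165949383 to 166069510, minus strand), encodes GluA2, the subunit that limits calcium entry. Blast-control 1, 4, 5, 7 and 9 had 993, 1398, 1333, 1224 and 1467 CPM, and blast-boldine 12, 17, 19, 20, 32 and 35 had 1497, 1518, 1476, 1282, 1188 and 1453 CPM. Among these 11 libraries the 3 highest values were those of the treated rats of sheet B. The share of all genes with that order was not counted. Blast-control 6, scaled together with all libraries, had 1616 CPM from 102 counts (Poisson interval 1317 to 1961 CPM). On that scale it lay above every treated rat, the highest of which was blast-boldine 17 at 1486 CPM. The interval includes that value, so the order of these rats cannot be decided. The gene shares 29 exon bases with Mir2985 on the same strand, and no other subunit gene shares exon bases with a listed gene.

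Gria3, on chromosome X (120238988 to 120504106, plus strand), encodes GluA3 and was the steadiest of the 9. It lay between 336 and 361 CPM in the 5 deeper blast-control libraries and between 319 and 409 CPM in blast-boldine. Gria4, on chromosome 8 (1562118 to 2034979, minus strand), encodes GluA4, a subunit of fast-spiking interneurons and of the developing hippocampus. Blast-control 1, 4, 7 and 9 had 143, 154, 145 and 144 CPM and blast-control 5 had 221 CPM, while blast-boldine ranged from 131 to 221 CPM. The blast-boldine values thus covered the whole range of the controls.

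Grik1, on chromosome 11 (27169739 to 27570273, minus strand), encodes GluK1, which is known from hippocampal interneurons. Its level was 24.9 to 47.8 CPM in the 5 deeper blast-control libraries, the highest again in blast-control 5, and 27.7 to 40.9 CPM in blast-boldine. Grik4, on chromosome 8 (42905056 to 43205077, minus strand), encodes GluK4, a partner subunit known from CA3. It ranged from 65.5 to 116 CPM in blast-control and from 67.3 to 108 CPM in blast-boldine. For both genes every blast-boldine value lay within the range of these controls, which reached further at both ends.

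Grik5, on chromosome 1 (80605890 to 80667072, minus strand), encodes GluK5, the other partner subunit. Blast-control 1, 5, 7 and 9 had 114, 151, 126 and 120 CPM, and blast-control 4 had 258 CPM. Blast-boldine rats lay between 106 and 158 CPM, so blast-control 4 alone stood above them.

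Grik2, on chromosome 20 (52135325 to 52833061, minus strand), encodes GluK2, a principal channel-forming subunit. Blast-control 1, 4, 5, 7 and 9 had 107, 139, 150, 114 and 124 CPM, and blast-boldine 12, 17, 19, 20, 32 and 35 had 159, 155, 158, 123, 118 and 129 CPM. The 3 highest values were those of the treated rats of sheet B, and the treated rats of sheet A lay within the control range.

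Grik3, on chromosome 5 (137767865 to 137984307, plus strand), encodes GluK3, a channel-forming subunit of low glutamate affinity. Blast-control 1, 4, 5, 7 and 9 had 46.8, 34.0, 35.4, 46.0 and 34.0 CPM, and blast-boldine 12, 17, 19, 20, 32 and 35 had 26.2, 29.2, 30.5, 34.1, 34.3 and 26.8 CPM. The highest values were those of blast-control 1 and 7, and 4 of 6 blast-boldine rats lay under every one of these controls, while the other two lay just inside the control range.

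**Figure D2:**
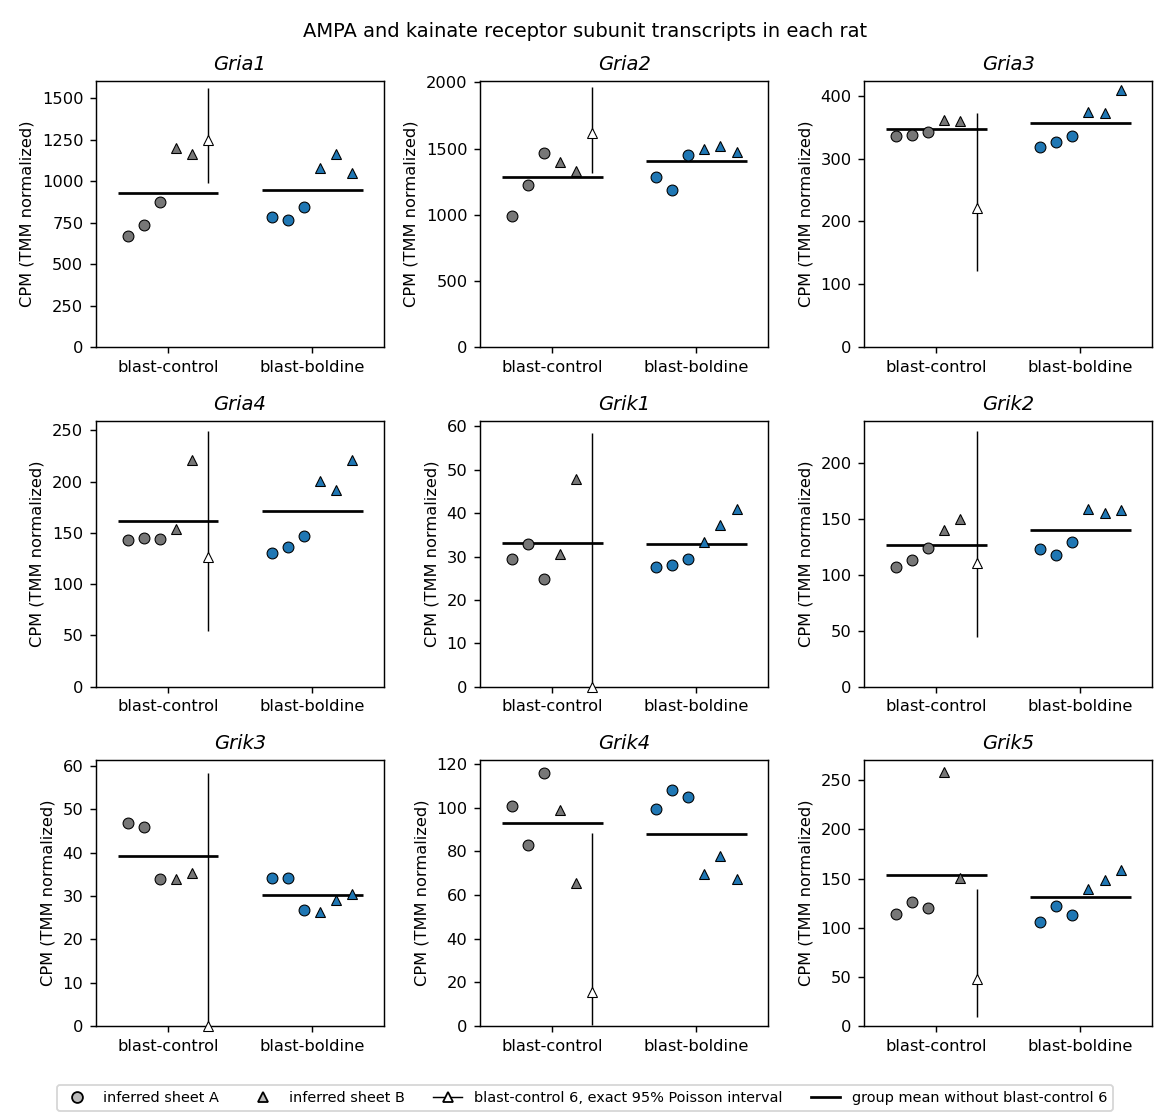
CPM of each subunit transcript (linear axes from 0) in each rat, with blast-control grey and blast-boldine blue, circles for inferred sheet A and triangles for sheet B, and lines at the group means of the 11 deeper libraries. The hollow triangle is blast-control 6, scaled together with all libraries, with its exact 95% Poisson interval. The treatment groups overlap in all 9 panels, and the interval of blast-control 6 for Grik3, which is two-sided and so extends above the 3-count limit of 47.5 CPM, reaches from 0 past all other rats.

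With all 12 libraries, none of the 9 subunits passed. In edgeR's quasi-likelihood test 0 of 9 had an unadjusted p under 0.05, where 1.07% of 12325 tested genes did, and the Benjamini-Hochberg adjusted p of every subunit was 1. No gene passed an adjusted p of 0.05, with 132 under the unadjusted threshold. DESeq2 also gave 0 of 9 under an unadjusted p of 0.05 (background 0.542%) and no gene under the adjusted one. The largest difference was that of Grik3, at -0.32 ± 0.20 on the log2 scale (SE, 95% interval -0.76 to 0.12, unadjusted p = 0.136 and adjusted p = 1 in edgeR). Of the other subunits, Grik2 was at 0.16 ± 0.13 (-0.12 to 0.44) and Grik5 at -0.14 ± 0.24 (-0.67 to 0.38). The median log2 difference of the 9 was 0.03, beside 0.005 over all genes tested. In bulk tissue, fewer cells that express a subunit and less of its RNA per cell cannot be told apart.

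Without blast-control 6, 1 of 9 subunits, Grik3, had an unadjusted p under 0.05, where 1.40% of 12529 genes did (0.846% in the lower direction). Its level was 39.3 ± 6.6 CPM in blast-control (SD, n = 5) and 30.2 ± 3.5 CPM in blast-boldine (SD, n = 6), a log2 difference of -0.38 ± 0.13 (SE, 95% interval -0.67 to -0.09, edgeR unadjusted p = 0.0135). The adjusted p was 1 and Grik3 ranked 30 by p, so the difference did not pass the correction. With the inferred sheet as a covariate as well, the log2 difference was -0.36 ± 0.10 (-0.58 to -0.13, edgeR unadjusted p = 0.00434, adjusted p = 0.898, rank 45), where 5.35% of genes were under the unadjusted threshold. DESeq2 in that design gave -0.36 ± 0.11 (unadjusted p = 0.00104, adjusted p = 0.390), with a background of 4.69%.

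**Figure D3:**
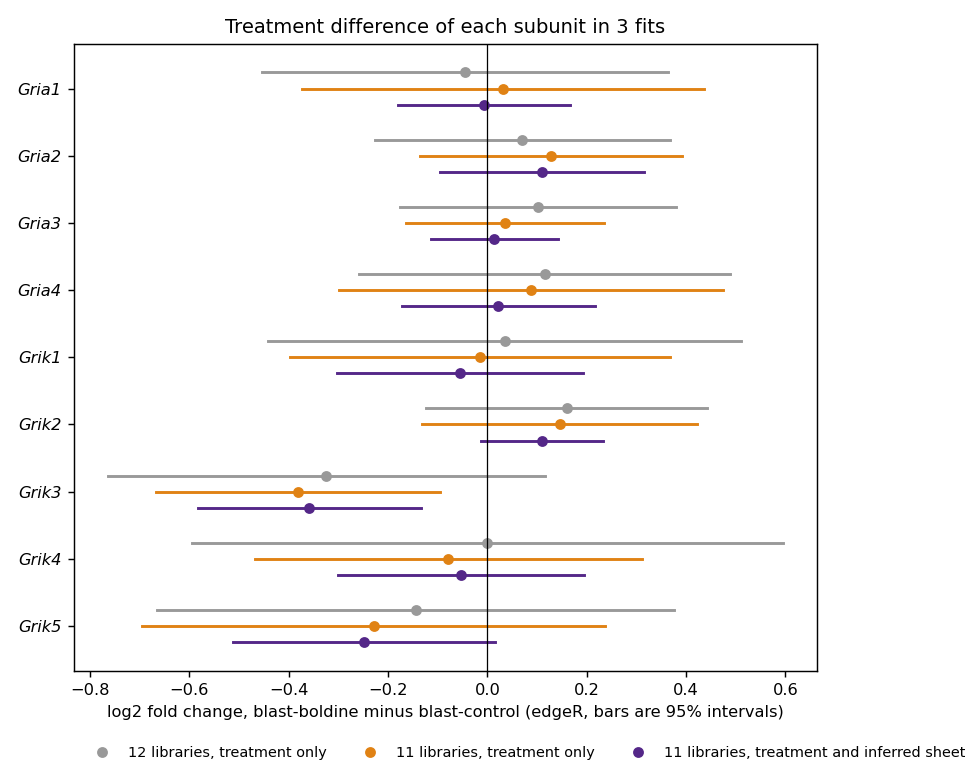
Log2 fold change (points, blast-boldine minus blast-control) and 95% interval (bars) of each subunit from edgeR with all 12 libraries (grey), without blast-control 6 (orange) and without blast-control 6 with the inferred sheet as covariate (purple). Only the orange and purple intervals of Grik3 lie wholly on one side of 0, and no subunit passed the adjusted threshold in any of the 3 fits.

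For Grik3, an exact two-sided permutation of group means on the log2 CPM scale returned p = 0.0216 over the 462 assignments of the 11 libraries (smallest possible p 0.00216), where 2.09% of genes were under 0.05. Permuted within the inferred sheets, p was 0.015 (200 assignments, smallest possible p 0.005, background 6.03%). All 6 blast-boldine rats lay under the median of the 5 controls, as was so for 4.25% of genes, and at least 4 lay under every control for 1.76%. The log2 difference was -0.41 in sheet A, with 3 rats in each group, and -0.28 in sheet B, with 2 controls and 3 treated rats. In sheet B the treated rats (26.2 to 30.5 CPM) lay under both controls (34.0 and 35.4 CPM), and in sheet A the groups met between 34.0 and 34.3 CPM. With blast-control 6 and its 0 counts included, the mean log2 CPM difference was 1.02 in the opposite direction and the exact permutation p was 0.991, and log2 CPM of a library with 0 counts depends on the added prior count.

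A total of 47 fits were run, 25 of them chosen after seeing the data, and they share nearly all of their rats. Without blast-control 6, Grik3 was under an unadjusted p of 0.05 in 28 of 28 fits, among them all 25 chosen after seeing the data. These fits rework the same comparison, so their number adds no separate evidence. The share of all genes under 0.05 in every such fit was not counted. They include each of the 11 that left out a further rat with treatment as the only term (log2 difference -0.43 to -0.31). With blast-control 6, Grik3 was under that threshold in 1 of 18, the fit with the sheet covariate (log2 difference -0.34, background 3.85%). The lowest adjusted p of Grik3 over all fits was 0.390 and the highest was 1. Astrocyte markers, which together lay between 2886 and 3818 CPM in blast-control and between 2871 and 3552 CPM in blast-boldine, and oligodendrocyte precursor markers (186.5 to 276.5 and 190.2 to 260 CPM) overlapped between the groups. Summed markers also overlapped for CA1 (548.6 to 757.1 CPM in blast-control and 436.1 to 597.7 CPM in blast-boldine) and for cortical layers (143.6 to 189.3 and 126.1 to 200.8 CPM). In the fit with the sheet and without blast-control 6, single markers were lower at an unadjusted p under 0.05 in 4 of the lists. They were 1 of 2 tested for CA1 (median log2 difference -0.19), 1 of 4 for cortical layers (-0.25), 1 of 2 for oligodendrocyte precursors (-0.08) and 1 of 3 for thalamus (-0.02), and 0 of 5 for astrocytes (-0.06). In that fit 3.54% of all genes were lower at that threshold. No tested marker was under it for excitatory, CA2, CA3 and dentate granule neurons, interneurons, oligodendrocytes, microglia, endothelium and choroid plexus. The part of these markers in the Grik3 difference was not tested.

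The 95% intervals of the other subunits depended on the fit. With all 12 libraries and treatment alone they were wider than those below, at -0.45 to 0.36 for Gria1 and -0.60 to 0.60 for Grik4. Without blast-control 6 and with the sheet covariate, the 95% interval of the log2 difference was -0.11 to 0.14 for Gria3, -0.18 to 0.17 for Gria1 and -0.17 to 0.22 for Gria4. It was -0.10 to 0.31 for Gria2, -0.30 to 0.19 for Grik1 and -0.30 to 0.19 for Grik4. Grik2 was at 0.11 ± 0.06 (-0.01 to 0.23, edgeR adjusted p = 0.898) and Grik5 at -0.25 ± 0.12 (-0.51 to 0.02, edgeR adjusted p = 0.898), and neither passed. For Grik2 the exact permutation within sheets gave p = 0.03 without blast-control 6, where 6.03% of genes were under 0.05. Over all assignments the exact permutation gave p = 0.251. In sheet B the treated rats had 155 to 159 CPM of Grik2, above both controls (139 and 150 CPM). The share of all genes so ordered in sheet B was not counted. For Grik5 the value depended on blast-control 4, as leaving out that rat as well gave a log2 difference of -0.05 in the same fit. With treatment alone and blast-control 6 kept, Grik5 was at -0.14, and at 0.13 without blast-control 4.

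The make-up of each receptor family was compared as shares of its summed level per kilobase, which do not depend on library size. In the 11 libraries Gria1 made up 51.7 ± 4.6% of the Gria sum in blast-control (SD, n = 5) and 50.8 ± 2.3% in blast-boldine (SD, n = 6). Gria2 made up 31.7 ± 3.4% and 33.0 ± 2.1%, Gria3 11.6 ± 1.8% and 11.2 ± 0.8%, and Gria4 5.0 ± 0.8% and 5.0 ± 0.5%. The Grik genes together made up 18.2 ± 1.6% of both families in blast-control and 16.9 ± 1.3% in blast-boldine. Within the Grik sum, the share of Grik2 was 31.7 ± 3.3% in blast-control and 36.4 ± 3.3% in blast-boldine. That was the only one of 10 shares with an unadjusted exact permutation p under 0.05 (p = 0.0433, adjusted p = 0.433 over the 10 shares). In the exact permutation within sheets the Grik2 share gave p = 0.01, with an adjusted p of 0.1. Grik3 made up 8.45 ± 2.28% and 6.65 ± 1.01%. With all 12 libraries the smallest adjusted p over the 10 shares was 0.981, and the Grik2 share of blast-control 6, from 11 counts in all, was 67.5%.

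**Figure D4:**
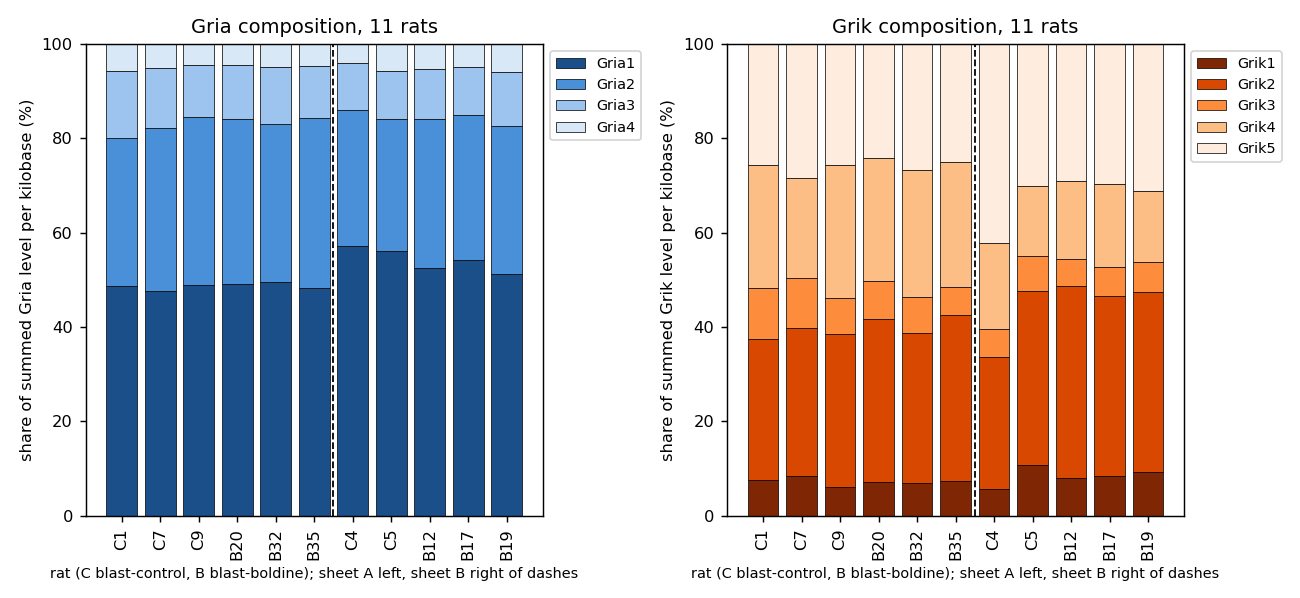
Share (%) of each subunit in the summed Gria (left) and summed Grik (right) level per kilobase, one bar per rat, without blast-control 6. Bars left of the dashed line are inferred sheet A and bars right of it sheet B. Gria1 takes 48.7% on average in sheet A and 54.2% in sheet B, and Grik4 takes 25.7% and 16.5% of the Grik sum.

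Apart from Grik3, each subunit differed more between the inferred sheets than between the treatments. Gria1 was at 778 ± 74 CPM in sheet A (SD, n = 6) and 1130 ± 64 CPM in sheet B (SD, n = 5), a log2 difference of 0.54. Grik5 (0.53), Gria4 (0.48), Grik1 (0.39), Grik2 (0.35), Gria2 (0.19) and Gria3 (0.17) were also higher in sheet B on the log2 scale, while Grik4 (-0.43) and Grik3 (-0.20) were lower. The values of Gria1, Gria3, Gria4, Grik2 and Grik5 did not overlap between the sheets, a division chosen from these same libraries. The share of all genes without such overlap was not counted. For these subunits, between 43.8% (Gria1) and 80.5% (Gria3) of tested genes had a larger absolute sheet difference. Over all tested genes the median absolute sheet difference was 0.470 on the log2 scale, and 6 of the 9 subunits were below that. Summed CA3 markers were at 110 CPM in sheet A and 74.9 CPM in sheet B, and CA2 markers at 259.6 and 178 CPM. In the same order, excitatory neuron markers were at 2773 and 3905 CPM, dentate granule at 173 and 246, and CA1 at 582 and 590. Oligodendrocyte markers were at 5572 and 3368 CPM, endothelial at 70.7 and 207, microglial at 255 and 128, and interneuron at 490 and 438. Astrocyte markers were at 3470 and 3133 CPM, oligodendrocyte precursor at 254 and 201, and choroid plexus at 479 and 414. Thalamus markers were at 42.4 and 70.9 CPM and cortical layer markers at 157 and 173 CPM. Their part in the sheet differences was not tested. After treatment and sheet were taken out, the residual SD of log2 CPM was 0.060 for Gria3 and 0.068 for Grik2, between 0.124 and 0.230 for the other 7, and 0.185 at the median of all genes.

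Genes that act with these receptors were taken from 6 lists with 38 genes in all, of which 35 were tested. They are the AMPA auxiliary subunits (the TARP proteins, cornichons and Shisa family), the kainate auxiliary subunits Neto1 and Neto2, AMPA receptor assembly and trafficking, the secreted and trans-synaptic organisers, the RNA editing enzymes and the delta receptors. With all 12 libraries 1 of 35 was lower at an unadjusted p under 0.05 and 0 were higher (background 0.519% and 0.552%), and none passed the adjusted threshold. The median log2 difference of the 35 was -0.02. That gene was Shisa8, an AMPA receptor auxiliary subunit also called CKAMP39, at 2.28 ± 0.62 CPM in blast-control (SD, n = 5) and 1.41 ± 0.51 CPM in blast-boldine (SD, n = 6) without blast-control 6, which had 0 counts of it. Its log2 difference was -0.71 ± 0.27 with all libraries (SE, edgeR unadjusted p = 0.0213, adjusted p = 1). The lowest 3 values over these libraries were from treated rats, and the share of all genes with that order was not counted. The exact permutation p was 0.0346 over the 11 libraries, where 2.09% of genes were under 0.05. Within the inferred sheets the exact permutation p was 0.065 (background 6.03%). Shisa8 was named by its p in these same libraries, so these values add no separate evidence. With all 12 libraries DESeq2 gave 0 of the related genes under the unadjusted threshold, and so did edgeR without blast-control 1 or without blast-control 7, so the Shisa8 call rests on both of those rats. Of 13 AMPA auxiliary genes tested, 10 had a log2 difference below 0, where 6002 of all 12325 genes tested did. Their median was -0.09 beside 0.005 over all genes, and the list was not tested as a set.

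In the other lists the gene with the largest difference over all 12 libraries did not pass in any case. Neto1, which binds kainate and NMDA receptors, was at 0.12 ± 0.15 on the log2 scale (SE), and Nptx1, a neuronal pentraxin that clusters AMPA receptors, at -0.18 ± 0.20. Adarb1, the enzyme that edits the Gria2 transcript, was at 0.10 ± 0.10 and Grid1, a delta receptor, at -0.15 ± 0.15. Cpt1c, an endoplasmic reticulum protein that binds GluA1, was at -0.22 ± 0.19 and had an unadjusted p under 0.05 with the sheet covariate and without blast-control 6 (-0.22 ± 0.09, edgeR adjusted p = 0.898). In that fit 2 of 35 were lower and 0 higher, against 3.54% and 1.81% of all genes. Among 6 NMDA receptor subunits tested, 0 were under the unadjusted threshold with all 12 libraries, and the largest difference was that of Grin2c at -0.20 ± 0.15.

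**Figure D5:**
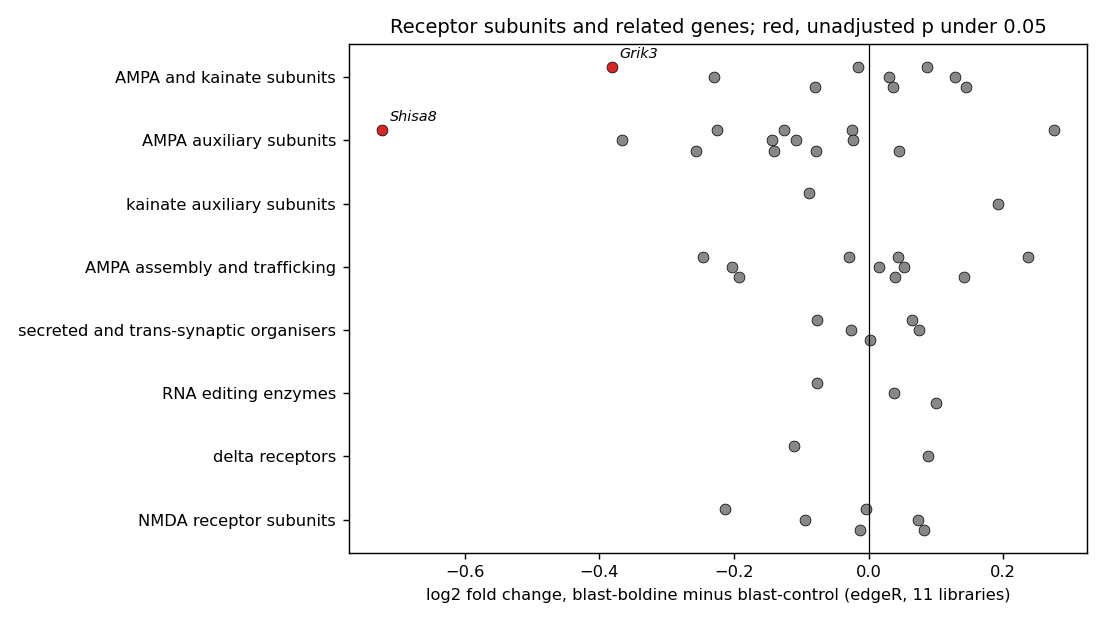
Log2 fold change (blast-boldine minus blast-control, edgeR without blast-control 6) of the 9 subunits and of each tested gene in the 6 lists and among the NMDA receptor subunits, one point per gene. Grik3 (-0.38) and Shisa8 (-0.72) are the points with an unadjusted p under 0.05, drawn in red.

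The genes whose residual pattern was most like each subunit were ranked by Pearson correlation over the 11 libraries after treatment and sheet were taken out, as a description of the same libraries. The leading gene was Hspa8 for Gria1 (r = 0.94), Rab2a for Gria2 (0.97), C1s for Gria3 (0.92) and Gcfc2 for Gria4 (0.97). The next places were held by Wdr7 and Jpt1 for Gria1, Capza2 and Nedd4 for Gria2, Pik3r5 and LOC689986 for Gria3, and Klhl15 and Ccz1b for Gria4. Among the kainate subunits the leading gene was Bend5 for Grik1 (r = 0.95), Itih3 for Grik3 (0.96), Agpat4 for Grik4 (0.95) and Bai1 for Grik5 (0.98). Cemip2 and Mcam followed for Grik1, Chdh and Rbms2 for Grik3, Tmem38a and Thoc6 for Grik4, and Camta2 and Maf for Grik5. For Grik2, Nalcn (r = 0.95) and Nek2 (0.94) were among the top 3. These genes are the top of 12529 over 11 rats, so high values arise readily. Between subunits the closest pairs were Gria2 with Grik2 (r = 0.84) and Gria1 with Gria2 (0.81), and the closest subunit to Grik3 was Grik1 (0.43).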

How the data were processed

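Total hippocampal RNA of 12 rats was sequenced from stranded, ribosomal RNA-depleted libraries. The authors trimmed and de-duplicated the reads, aligned them to mRatBN7.2 with STAR 2.7.11b and RefSeq gene models, and counted exon reads by strand with featureCounts (Subread 2.0.1). The deposited values are raw read counts per gene and were used as given. The number of value columns left unused was 0. The other deposited columns give the position and strand of each gene and, under Length, its counted exon length.

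Genes passing filterByExpr (minimum count 10) were tested in edgeR 4.0.16 (R 4.3.3) with TMM scaling, a quasi-likelihood test on treatment and Benjamini-Hochberg adjustment over all genes tested. DESeq2 1.42.0, other scalings, filters and a length offset, the inferred sheet, and the omission of each library were tried as alternatives. Log2 CPM used a prior count of 2. Intervals are at 95% and, with floors, cover counting error only where they are Poisson. Exact permutation tests enumerated all assignments with numpy 2.4.6, and scipy 1.17.1 served as a check on random values. Both models were tested on simulated data. Replicates are separate rats. Members and lists were chosen with earlier results of these data known. Named genes are all 9 subunits, listed genes with an unadjusted p under 0.05 in the 3 fits shown, the largest difference in each list, and the top 3 genes by likeness, of which a gene is not reported here. Promoter and protein sequences were not used here.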

Additional observations from a re-analysis of the deposited data

Results flagged for a closer look

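In 27 sets of log2 CPM values (9 subunits in blast-control with and without blast-control 6, and in blast-boldine) a single rat stood far from the others by Dixon's test in 6, where chance flags about 1 in 20. Blast-control 6 was the rat in 4 of them, and each rests on few counts. It was low for Gria3 (7.79, from 14 counts, others 8.37 to 8.48), for Grik4 (3.996, from 1 count, others 6.00 to 6.85), and for Grik1 and Grik3 (both -3.07, from 0 counts each, a value set by the prior count). Blast-control 5 was high for Gria4, at 7.75 with all 12 libraries and 7.79 without blast-control 6, where the other controls were at 7.16 to 7.26. Without blast-control 5 the log2 difference of Gria4 over the remaining 11 libraries was 0.26.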

How the results depend on the processing

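No subunit and no related gene passed an adjusted p of 0.05 in any fit. The count of subunits under an unadjusted p of 0.05 rose from 0 to 1, Grik3, without blast-control 6, with the inferred sheet as covariate, with both (in edgeR and in DESeq2) and with each of the 3 other divisions into sheets as covariate and without blast-control 6, and it ranged from 0 to 3 over the fits that left out rats. The related genes under that threshold numbered 1 with all libraries, 0 in DESeq2, 0 with at least 10 counts in every library, 2 with the sheet, 2 with the sheet and without blast-control 6, 3 in DESeq2 with the latter, and 0 to 1 when single rats were left out. Grik3 kept its direction in all 46 fits that held it, at -0.43 to -0.24 on the log2 scale when rats were left out, and the filter on every library removed it.

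Signs turned only in log2 differences that never passed the adjusted threshold. Gria1 was 0.022 with at least 10 counts in every library and -0.12 to 0.048 when single rats were left out. Grik1 was -0.031 with the sheet, -0.055 (edgeR) and -0.052 (DESeq2) with the sheet and without blast-control 6, and -0.037 to 0.20 when single rats were left out. Grik4, at 0 in edgeR with all libraries, was -0.012 with RLE scaling, -0.018 with upper quartile scaling, -0.011 in DESeq2, -7.5e-06 with no filter, -0.032 with the sheet, -0.053 with the sheet and without blast-control 6 in both tools, and -0.080 to 0.11 when single rats were left out. Grik5 was -0.23 to 0.13 when single rats were left out. Without blast-control 6 and a further rat, signs also turned for Gria3 (down to -0.0073, and -0.0099 with the sheet) and for Gria4 with the sheet (down to -0.070). Of the shares, the difference turned without blast-control 6 and within sheets for Gria3 (-0.154 percentage points), Grik2 (4.58) and all Grik genes (-1.17). When single rats were left out it ranged from -0.419 to 1.22 for Gria3, -0.0104 to 0.510 for Gria4, -3.20 to 4.71 for Grik2, -1.80 to 0.393 for Grik3, -0.295 to 3.56 for Grik4, -2.75 to 0.965 for Grik5 and -1.30 to 1.38 for all Grik genes. Causes were not tested. No paired analysis was possible because the groups share no rat number. Depth limits what blast-control 6 can show, where a count of 0 allows 47.5 CPM.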
